A study of Homo sapiens with 16 samples.

Results

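The tumor necrosis factor (TNF) superfamily is a set of ligands, mostly membrane-bound trimers, and the TNF receptor superfamily is the set of receptors that they engage. Receptors with a death domain can recruit FADD or TRADD, most others bind TRAF adaptor proteins, and decoy receptors bind ligand without passing on the signal. Many of these receptors activate NFκB, whose p65 subunit (RELA) binds κB sites in DNA, so that the family stands both upstream of NFκB and among the genes near which p65 can bind. The members were the protein-coding genes with a symbol starting with TNFSF or TNFRSF, together with TNF, LTA, LTB, LTBR, CD27, CD40, CD40LG, CD70, FAS, FASLG, NGFR, EDAR, EDA2R and RELT. These are 47 of 19970 protein-coding genes, and 43 of them had signal in the tracks.

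p65 ChIP-Seq, in which chromatin pulled down with an antibody against p65 is sequenced, was carried out in HT29 and SW480, both established lines from human colorectal adenocarcinomas. Each line was stably transfected either with an empty vector (mock) or with estrogen receptor β (ERβ), and the cells of all 4 groups were treated with TNFα at 30 ng/ml for 30 minutes, so that no untreated cells enter the comparisons. No estrogen was given, by the study's methods. Each group had 3 ChIP libraries and 1 input library, which is chromatin sequenced without the antibody step and shows the background. By the study's data statement, the inputs of the ERβ groups came from another series of libraries. Whether each stable line was 1 clone is not given in the sources used here. The deposited tracks hold read coverage per base, scaled by the authors to 10000000 tags, and this is the signal quoted throughout. The number of reads behind a value cannot be read from scaled tracks. The paper reports a range of mapped reads per sample, but depth was not used here. As a check of the labels, signal in the coding exons of ESR2, the gene of ERβ, was divided by that in its introns. This ratio was 4.23 to 7.69 in the HT29 ERβ ChIP libraries against 1.08 to 1.37 in HT29 mock. In SW480 ERβ it was 2.53 to 3.13 against 1.31 to 1.60 in SW480 mock. The ratio was not used as a measure of ERβ expression, which by the paper was higher in SW480 than in HT29.

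For every gene the 200-bp bin of highest mean signal over the 12 ChIP libraries was taken, from 50 kb upstream to 2 kb downstream of its transcription start site (TSS). The 43 members came down to 39 distinct bins, because neighbours shared one. A bin was called bound in a group when, in at least 2 of 3 libraries, its signal was at least 2, at least 4-fold over the input of the group and at least 4-fold over the surrounding 10 kb. Libraries differed in overall enrichment. Over all genes, the number of bins that met these limits was 4262 in replicate 1 of HT29 mock against 1894 and 2025 in the other two, 3202 in replicate 1 of HT29 ERβ against 1352 and 1169, and 5091 and 4557 in replicates 2 and 3 of SW480 ERβ against 2594 in replicate 1. In SW480 mock the range was 731 to 1159. The median input signal over the bins of all genes was 0.42 in HT29 mock, 0.524 in HT29 ERβ, 0.68 in SW480 mock and 0.46 in SW480 ERβ. A higher input raises the signal that a bin needs to be called bound.

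p65 was bound at 15 of the 43 members in at least 1 group, over 13 distinct bins, beside 23.4% of all protein-coding genes tested. In HT29 mock cells 9 members were bound, beside 11.7% of all protein-coding genes tested, and in HT29 ERβ cells 9, beside 8.02%. SW480 mock cells had 4 bound members, beside 4.64% of all genes, and SW480 ERβ cells 12, beside 21.2%. The shared bin of TNFRSF10B and TNFRSF10C and the EDAR promoter were bound in all 4 groups. TNFRSF12A, TNFSF15 and TNFSF18 were bound in both HT29 groups and in neither SW480 group, and TNFRSF9 in both SW480 groups and in neither HT29 group. The shared bin of TNFRSF4 and TNFRSF18 and the TNFSF13 promoter were bound in every group but SW480 mock. The TNFSF13 inputs were 0.25 in HT29 mock, 0.424 in HT29 ERβ, 1.30 in SW480 mock and 0.799 in SW480 ERβ. Its limit over input was therefore highest in SW480 mock. CD70, FASLG, RELT, TNFRSF1B and TNFRSF6B were bound in SW480 ERβ cells alone, which describes the calls and is no test between groups. In an alternative chosen after seeing the data, the ChIP libraries were brought to one level over their 2000 highest bins. Then 9 members were bound in SW480 ERβ, beside 12.5% of all genes. In HT29 mock, HT29 ERβ and SW480 mock 9, 9 and 4 were bound, beside 11.9%, 10.1% and 6.57%. Such rescaling also removes any change of binding that those high bins share. Without replicate 1 or 3 of HT29 mock, 6 members were bound there, beside 8.2% and 9.6% of all genes, and 6 in HT29 ERβ without replicate 1 or 2 of it, beside 4.76% and 5.95%. All remaining libraries of the group had to meet the limits in these settings, so the counts could fall but not rise. At a signal minimum of 4 in place of 2, 1 member was bound in HT29 mock and 0 in HT29 ERβ, beside 4.73% and 2.88% of all genes, so that TNFRSF12A, TNFSF15 and TNFSF18 were no longer bound in both HT29 groups.

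**Figure D1:**
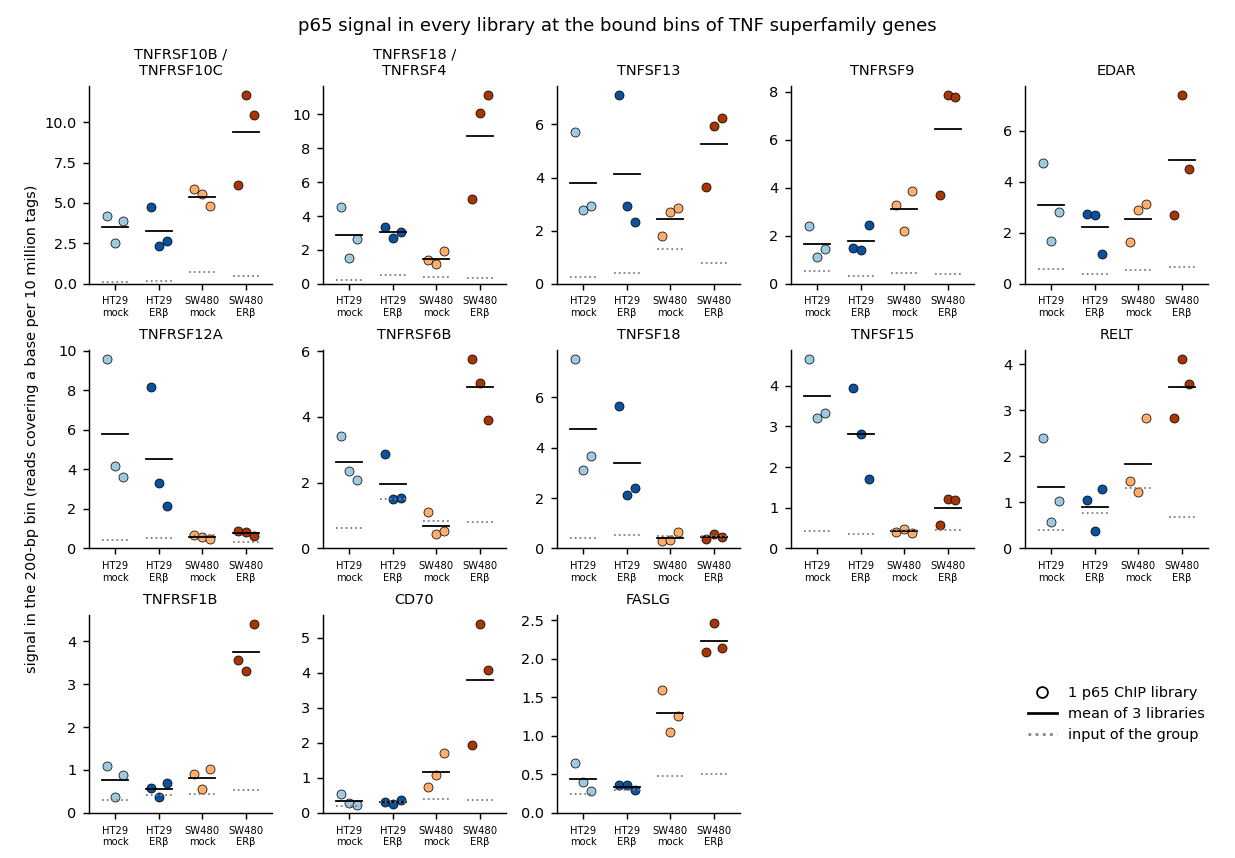
Signal in each ChIP library (points, 3 a group), its mean (black line) and the input of the group (dotted line) at the 13 distinct bound bins, with a separate linear axis from 0 for each gene. TNFRSF12A, TNFSF15 and TNFSF18 are high in the HT29 groups and near input in SW480 mock, and TNFRSF1B rises above 3 in the 3 SW480 ERβ libraries alone.

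The κB consensus, to which NFκB dimers bind, was searched on both strands of the chosen bins as a pair of G, a pair of purines, any base, A or T, a pair of pyrimidines and a pair of C. Of the 13 bound member bins 10 (76.9%) held a match. The share was 59.5% over the 2741 distinct bound bins of all genes and 5.29% in bins 1 kb away from them, and in unbound bins it was 19.2% of 26 for members and 18.1% of 11130 for all genes. The AP-1 motif, TGAGTCA or TGACTCA on either strand, matched in 3 of the 13 bins (23.1%), against 9.23% of all bound bins. The sequences below are those of the bins on which the comparisons between groups turn, on the plus strand of GRCh38, with κB matches on either strand in capitals and, where named, AP-1 matches. Overlapping matches run together into 1 stretch of capitals. Whole bins are given for 3 that overlap no annotated exon, and 30 bases around the match elsewhere.
TNFRSF4 and TNFRSF18, chr1:1215201-1215400: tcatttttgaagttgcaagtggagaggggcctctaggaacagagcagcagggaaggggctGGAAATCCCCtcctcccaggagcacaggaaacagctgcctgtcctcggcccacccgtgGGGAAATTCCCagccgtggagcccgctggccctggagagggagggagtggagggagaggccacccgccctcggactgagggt
TNFRSF1B, chr1:12165401-12165600: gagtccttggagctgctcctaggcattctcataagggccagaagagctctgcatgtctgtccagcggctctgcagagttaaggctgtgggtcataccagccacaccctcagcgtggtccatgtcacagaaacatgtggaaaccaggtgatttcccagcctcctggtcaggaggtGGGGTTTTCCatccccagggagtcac
TNFSF18, chr1:173052601-173052800: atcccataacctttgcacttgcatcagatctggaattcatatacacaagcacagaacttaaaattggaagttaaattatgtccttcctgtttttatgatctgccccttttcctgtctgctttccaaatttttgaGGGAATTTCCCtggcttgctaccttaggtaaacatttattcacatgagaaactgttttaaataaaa
TNFRSF12A, chr16:3009841-3009870: attcaagctgGGAATGTCCCtcaaaaaagt
TNFRSF12A, chr16:3009952-3009981: tgctgggtggGGGGACTTCCagggaggcag
TNFSF15, chr9:114806317-114806346: aaggaagttaGGAAAGTCCCtgaaggagga
TNFRSF6B, chr20:63686952-63686981: ggagggggtgGGGAAGTTCCCccattgcag
TNFRSF9, chr1:7940893-7940922: ggggtctcatGGGAAATTCCCaccacagct
TNFRSF9, AP-1, chr1:7940865-7940894: acaggagtgcggTGACTCAgccaggggcgg
EDAR, chr2:108989231-108989260: tccttgccgaGGGGCTTTCCctcattgcaa
TNFSF13, chr17:7558001-7558030: gggggcGGGGACCTCCatgcctccagcccc
TNFSF13, chr17:7558131-7558160: tcctcctgcgGGGAAATCCCttcctggctg
FASLG, AP-1, chr1:172644115-172644144: cagctgaaccagTGAGTCAtatatggacag
Of the chosen bins bound in SW480 ERβ alone, those of RELT, CD70 and FASLG held no κB match. Those of TNFRSF1B and TNFRSF6B each held at least 1. The 3 bins bound in HT29 alone, those of TNFSF18, TNFRSF12A and TNFSF15, each held at least 1 too. A match is a description of the letters, and its absence says only that this consensus was not in the 200 bases.

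Of the 13 bound bins, 12 had a member as the nearest protein-coding gene, and 6 lay in an annotated promoter, 1 kb upstream to 100 bp downstream of a TSS. The bins of EDAR, TNFRSF9, TNFSF15, CD70 and TNFSF13 were at their own promoters, 81, 62, 262, 49 and 649 bp from the TSS. That of TNFRSF10B lay 5870 bp upstream, in the promoter of the noncoding gene CHILL1. The TNFRSF12A bin was 10467 bp upstream of its gene, between genes, and closer to CLDN9, a claudin gene, whose TSS was 3022 bp away. The TNFRSF6B bin, 9751 bp upstream, fell in an exon of the readthrough gene RTEL1-TNFRSF6B.

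Among the ligands, 15 of 18 genes had signal, and 5 of these were bound in some group, beside 23.4% of all genes. TNFSF18, the ligand of the receptor TNFRSF18 (GITR), read 7.52, 3.10 and 3.67 in HT29 mock, 5.67, 2.12 and 2.39 in HT29 ERβ, 0.290, 0.340 and 0.640 in SW480 mock and 0.370, 0.576 and 0.454 in SW480 ERβ. All 6 HT29 libraries stood above all 6 SW480 libraries, whose values lay around the inputs of 0.486 and 0.506. TNFSF15, the ligand of the death-domain receptor TNFRSF25, read 4.66, 3.21 and 3.33 in HT29 mock, 3.95, 2.81 and 1.70 in HT29 ERβ, 0.390, 0.480 and 0.380 in SW480 mock and 0.575, 1.22 and 1.18 in SW480 ERβ. Again the lines did not overlap, and the SW480 ERβ libraries all exceeded the SW480 mock libraries. TNFSF13 (APRIL), a ligand that supports B cells and plasma cells, read 5.73, 2.76 and 2.92 in HT29 mock, 7.12, 2.93 and 2.31 in HT29 ERβ, 1.81, 2.69 and 2.86 in SW480 mock and 3.64, 5.93 and 6.24 in SW480 ERβ. Its HT29 groups overlapped and its SW480 groups did not.

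CD70, the ligand of CD27, read 0.530, 0.279 and 0.220 in HT29 mock, 0.310, 0.244 and 0.359 in HT29 ERβ, 0.737, 1.08 and 1.71 in SW480 mock and 1.93, 5.41 and 4.09 in SW480 ERβ. FASLG, the ligand of the death receptor FAS, read 0.640, 0.399 and 0.283 in HT29 mock, 0.355, 0.360 and 0.300 in HT29 ERβ, 1.59, 1.05 and 1.26 in SW480 mock and 2.08, 2.46 and 2.14 in SW480 ERβ. Both were near input in HT29 and above every HT29 library in every SW480 library, and in both the SW480 ERβ libraries were the highest.

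The other ligands with a difference past the threshold in some comparison were low. TNFSF9, which binds TNFRSF9 (4-1BB), read 1.95, 0.674 and 0.958 in HT29 mock, 0.928, 0.310 and 0.372 in HT29 ERβ, 1.29, 1.66 and 1.03 in SW480 mock and 1.56, 1.96 and 2.21 in SW480 ERβ. TNFSF4, the ligand of TNFRSF4 (OX40), read 0.280, 0.390 and 0.612 in HT29 mock, 1.12, 1.69 and 0.748 in HT29 ERβ, 0.280, 0.360 and 0.223 in SW480 mock and 0.330, 0.220 and 0.220 in SW480 ERβ. Only in HT29 did the TNFSF4 libraries with ERβ all lie above the mock libraries, and that difference of 0.60 ± 0.22 on the log2 scale (SE) had an adjusted p of 1.00. TNFSF11 (RANKL), which drives osteoclast formation, read 0.948, 0.478 and 0.800 in HT29 mock, 3.22, 0.358 and 0.636 in HT29 ERβ, 0.360, 0.312 and 0.160 in SW480 mock and 0.690, 1.08 and 1.36 in SW480 ERβ, with 1 HT29 ERβ library far above its group.

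TNFSF8, the ligand of CD30, read 1.12, 1.15 and 0.990 in HT29 mock, 0.900, 0.804 and 0.652 in HT29 ERβ, 0.482, 0.372 and 0.340 in SW480 mock and 0.378, 0.700 and 1.12 in SW480 ERβ. The bin shared by TNFSF12 (TWEAK, the ligand of TNFRSF12A) and the readthrough gene TNFSF12-TNFSF13 read 0.140, 0.130 and 0.260 in HT29 mock, 0.360, 0.160 and 0.150 in HT29 ERβ, 1.17, 1.32 and 1.33 in SW480 mock and 1.2, 0.576 and 1.2 in SW480 ERβ. Its inputs differed in the same way, at 0.120 and 0.246 in HT29 and 1.46 and 0.864 in SW480. TNFSF13B (BAFF), a survival factor of B cells, read 0.450, 0.440 and 0.300 in HT29 mock, 0.915, 0.568 and 0.626 in HT29 ERβ, 1.19, 0.738 and 1.70 in SW480 mock and 0.605, 0.842 and 0.918 in SW480 ERβ. TNFSF14 (LIGHT) read 0.326, 0.220 and 0.160 in HT29 mock, 0.170, 0.430 and 0.660 in HT29 ERβ, 0.874, 0.963 and 0.822 in SW480 mock and 0.631, 0.360 and 0.985 in SW480 ERβ. None of these bins rose above 2 in any library.

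All 8 receptors with a death domain had signal, and 2 were bound in some group, beside 23.4% of all genes. TNFRSF10B (DR5), a receptor of the apoptosis-inducing ligand TRAIL, shared its bin with the decoy receptor TNFRSF10C, and this was the highest bin of the family, with a mean of 5.4 over the 12 ChIP libraries. It read 4.18, 2.53 and 3.89 in HT29 mock, 4.75, 2.31 and 2.67 in HT29 ERβ, 5.84, 5.57 and 4.79 in SW480 mock and 6.12, 11.7 and 10.4 in SW480 ERβ, over inputs of 0.110 to 0.741. EDAR, the ectodysplasin receptor, read 4.74, 1.68 and 2.83 in HT29 mock, 2.76, 2.71 and 1.16 in HT29 ERβ, 1.63, 2.88 and 3.14 in SW480 mock and 2.69, 7.42 and 4.49 in SW480 ERβ, and all 4 groups overlapped with at least 1 other. NGFR, the low-affinity neurotrophin receptor, read 0.721, 0.679 and 0.742 in HT29 mock, 0.423, 0.410 and 0.220 in HT29 ERβ, 0.570, 0.933 and 0.646 in SW480 mock and 1.07, 2.07 and 1.36 in SW480 ERβ. TNFRSF10A (DR4), the other death-inducing TRAIL receptor, read 0.160, 0.250 and 0.300 in HT29 mock, 0.374, 0.271 and 0.252 in HT29 ERβ, 1.04, 1.27 and 1.33 in SW480 mock and 1.74, 1.63 and 1.03 in SW480 ERβ, with inputs of 0.268, 0.340, 0.866 and 0.569 in the same order. FAS, TNFRSF1A (the main receptor of TNFα), TNFRSF21 and TNFRSF25 were bound in no group and past the threshold in no comparison. The bin of TNFRSF1A, shared with LTBR, had the highest mean among these, 1.82 against 0.892 over the 4 inputs.

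All 4 decoy receptors had signal, and 2 were bound in some group, TNFRSF10C and TNFRSF6B, beside 23.4% of all genes. The chosen bin of TNFRSF10C was the one shared with TNFRSF10B, which lay 28020 bp upstream of TNFRSF10C and nearer to TNFRSF10B. TNFRSF6B (DcR3) binds FASLG, TNFSF14 and TNFSF15 as a soluble protein. Its bin read 3.42, 2.36 and 2.09 in HT29 mock, 2.86, 1.51 and 1.54 in HT29 ERβ, 1.10, 0.430 and 0.528 in SW480 mock and 5.76, 5.04 and 3.92 in SW480 ERβ. Its inputs were 0.623, 1.51, 0.838 and 0.8 in the same order. The SW480 mock libraries lay below and the SW480 ERβ libraries above every HT29 library. TNFRSF10D, a decoy for TRAIL, read 0.255, 0.160 and 0.417 in HT29 mock, 0.510, 0.720 and 0.342 in HT29 ERβ, 0.440, 1.06 and 1.61 in SW480 mock and 0.830, 2.01 and 1.22 in SW480 ERβ. TNFRSF11B (osteoprotegerin), the decoy for TNFSF11, read 1.95, 2.37 and 1.56 in HT29 mock, 2.48, 1.76 and 2.20 in HT29 ERβ, 0.551, 0.581 and 1.02 in SW480 mock and 0.380, 0.647 and 0.360 in SW480 ERβ. These TNFRSF11B values followed the inputs, which were 2.36, 1.83, 0.610 and 0.330 in the same order.

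Of the 17 receptors that bind TRAF proteins or belong to no other class, 16 had signal and 6 were bound in some group, beside 23.4% of all genes. The bin shared by TNFRSF4 (OX40) and TNFRSF18 (GITR), costimulatory receptors of T cells, lay 1148 bp upstream of TNFRSF4 and 8709 bp upstream of TNFRSF18. It read 4.51, 1.52 and 2.67 in HT29 mock, 3.36, 2.71 and 3.04 in HT29 ERβ, 1.39, 1.17 and 1.93 in SW480 mock and 5.0, 10.1 and 11.2 in SW480 ERβ, so that every SW480 ERβ library stood above the other 9. TNFRSF1B (TNFR2), the second receptor of TNFα, read 1.09, 0.366 and 0.873 in HT29 mock, 0.590, 0.377 and 0.700 in HT29 ERβ, 0.898, 0.545 and 1.02 in SW480 mock and 3.57, 3.30 and 4.41 in SW480 ERβ. TNFRSF9 (4-1BB), another costimulatory receptor, read 2.41, 1.11 and 1.43 in HT29 mock, 1.5, 1.42 and 2.44 in HT29 ERβ, 3.29, 2.19 and 3.85 in SW480 mock and 3.69, 7.87 and 7.78 in SW480 ERβ. For TNFRSF1B the mock groups and HT29 ERβ were alike in range, and for TNFRSF9 the SW480 groups overlapped.

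TNFRSF12A (Fn14), the receptor of TWEAK, read 9.56, 4.15 and 3.61 in HT29 mock, 8.18, 3.32 and 2.14 in HT29 ERβ, 0.652, 0.585 and 0.460 in SW480 mock and 0.881, 0.824 and 0.638 in SW480 ERβ. Replicate 1 of each HT29 group was the highest, as it was over all genes, and all HT29 libraries exceeded all SW480 libraries. RELT read 2.40, 0.575 and 1.02 in HT29 mock, 1.06, 0.369 and 1.29 in HT29 ERβ, 1.46, 1.22 and 2.83 in SW480 mock and 2.83, 4.12 and 3.58 in SW480 ERβ. The 3 receptors without a bound bin that follow passed the threshold in some comparison. TNFRSF19 read 1.09, 0.810 and 0.392 in HT29 mock, 0.943, 0.780 and 0.840 in HT29 ERβ, 0.441, 0.448 and 0.240 in SW480 mock and 1.07, 1.30 and 1.18 in SW480 ERβ. TNFRSF11A (RANK), the receptor of TNFSF11, read 1.83, 0.751 and 0.430 in HT29 mock, 0.582, 1.08 and 0.710 in HT29 ERβ, 0.130, 0.120 and 0.160 in SW480 mock and 0.10, 0.350 and 0.300 in SW480 ERβ. TNFRSF13C, the BAFF receptor, read 0.478, 0.689 and 1.03 in HT29 mock, 0.807, 0.533 and 0.290 in HT29 ERβ, 0.800, 0.812 and 0.518 in SW480 mock and 0.929, 1.68 and 1.53 in SW480 ERβ. All 3 stayed under 2 in every library.

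**Figure D2:**
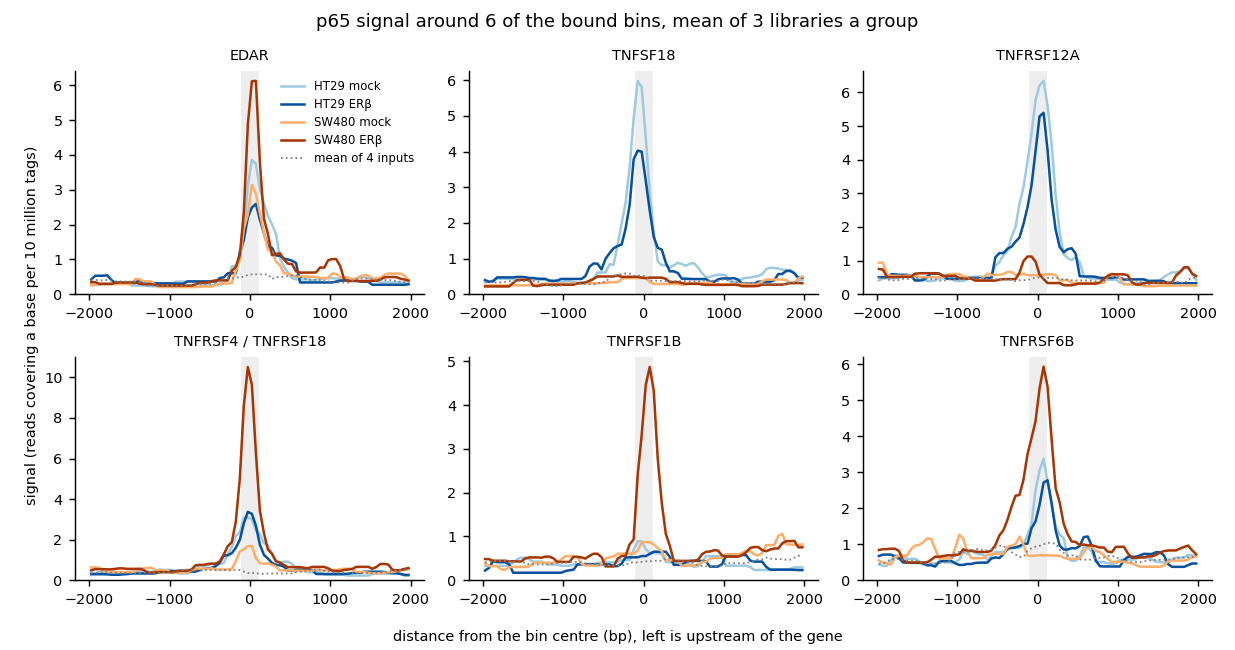
Mean signal of the 3 ChIP libraries of each group (colored lines) and of the 4 inputs (dotted line) in 50-bp steps up to 2 kb from the centre of 6 bound bins, upstream of the gene to the left and the 200-bp bin shaded. The signal forms 1 narrow peak in or beside the shaded bin, in HT29 alone at TNFSF18, in SW480 ERβ alone at TNFRSF1B and in all 4 groups at EDAR.

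Binding in the mock lines was compared first, to ask how the family differed between lines before ERβ was introduced. Differences are on the scale of log2(signal + 1), from limma fitted over 19441 genes with Benjamini-Hochberg adjustment, and understate the change of low bins. Between SW480 mock and HT29 mock, 8 members were higher and 8 lower in SW480, beside 9.07% and 8.95% of all genes, and the median over members was -0.0035 against 0.0403 over all genes. The largest differences were those of the bins bound in HT29 alone. TNFRSF12A was 10.2-fold lower in SW480 by the ratio of means, 0.566 ± 0.098 against 5.77 ± 3.29 (SD, n = 3 each), which on the log2 scale was -2.01 ± 0.32 (SE) with an adjusted p of 0.000243. TNFSF18 was 11.2-fold lower, 0.423 ± 0.189 against 4.76 ± 2.40 (SD, n = 3 each), or -1.95 ± 0.29 with an adjusted p of 0.000182 by limma. TNFSF15 was 8.96-fold lower, 0.417 ± 0.055 against 3.73 ± 0.80 (SD, n = 3 each), or -1.73 ± 0.25 with an adjusted p of 0.000137 by limma. These 3 differences stayed past the threshold in all 16 alternative settings run. TNFRSF6B was 3.82-fold lower in SW480 (-1.11 ± 0.26, adjusted p = 0.00514 by limma), and the other 4 that were lower, TNFRSF11A, TNFRSF11B, TNFSF11 and TNFSF8, had differences of -0.79 to -0.44. The TNFRSF6B call was lost without replicate 2 of SW480 mock (adjusted p = 0.0508 by limma), and the count of lower members was then 4, and 5 without replicate 1 of SW480 mock, beside 5.59% and 4.09% of all genes.

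**Figure D3:**
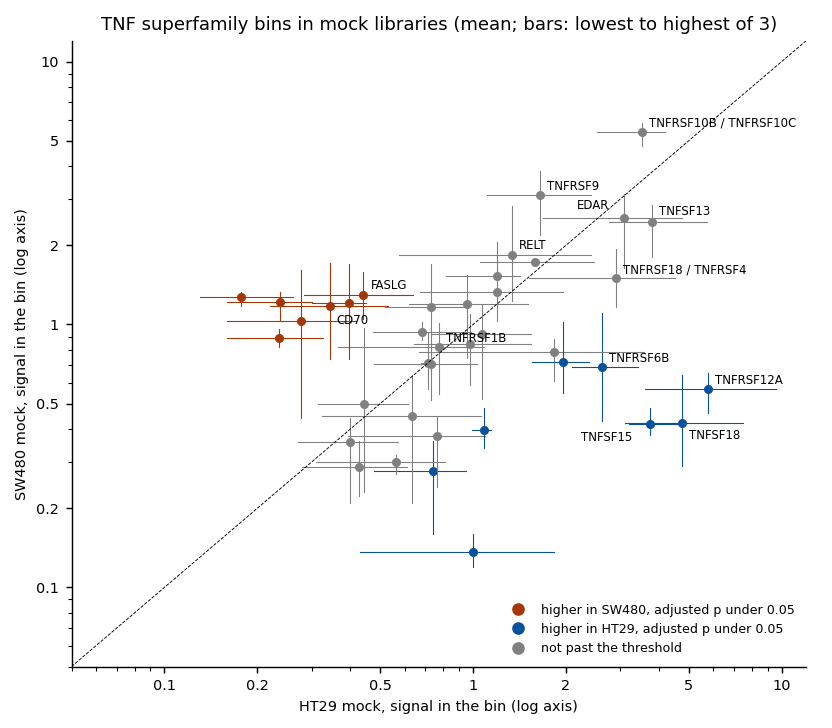
Mean signal of the 39 distinct member bins in SW480 mock against HT29 mock on log axes, with lines from the lowest to the highest of 3 libraries and a dashed line of equal signal. TNFRSF12A, TNFSF15 and TNFSF18 lie farthest below the dashed line, and the bins called higher in SW480 (orange) have means between 0.886 and 1.30 there.

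The members higher in SW480 mock were CD70, FASLG, TNFRSF10A, TNFRSF10D, TNFSF12 with TNFSF12-TNFSF13, TNFSF13B and TNFSF14, all at low signal. CD70 was 3.43-fold higher (0.68 ± 0.20 on the log2 scale, adjusted p = 0.0183 by limma) and FASLG 2.95-fold higher (0.68 ± 0.20, adjusted p = 0.0202 by limma), with signals 2.94-fold and 2.74-fold over the SW480 mock input. Both calls were lost without replicate 2 of HT29 mock (adjusted p of 0.0643 and 0.0651 by limma) or replicate 3 of it (0.104 and 0.113), that of CD70 also without replicate 3 of SW480 mock (0.0605) and that of FASLG without replicate 1 of SW480 mock (0.0776). The count of higher members was 4 without replicate 2 or 3 of HT29 mock and 5 without replicate 3 of SW480 mock, beside 4.76%, 3.93% and 6.74% of all genes. For the other bins this ratio was 0.873 to 1.41. The inputs also differed between lines, so that background and binding cannot be told apart at these bins. Why the inputs differed, by copy number or otherwise, was not tested. With the input of the group subtracted, no member was called higher in SW480 mock and 4 were called lower, TNFRSF12A, TNFRSF6B, TNFSF15 and TNFSF18, beside 0.18% and 1.51% of all genes. With the libraries rescaled over high bins, 12 were called higher and 5 lower, beside 24.8% and 7.76% of all genes.

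The effect of ERβ in HT29 was compared next. No member passed the threshold in either direction, beside 0% of all genes higher and 0% lower, and at an unadjusted p under 0.05 there was 1 member each way, TNFSF4 higher and NGFR lower, beside 0.679% of all genes higher and 1.84% lower. The median over the 43 members was -0.10 against -0.07 over all genes. Of the bins that differed most between the lines, TNFRSF12A read 4.55 ± 3.20 with ERβ against 5.77 ± 3.29 (SD, n = 3 each), TNFSF18 3.39 ± 1.98 against 4.76 ± 2.40 and TNFSF15 2.82 ± 1.12 against 3.73 ± 0.80. The TNFSF13 bin read 4.12 ± 2.61 against 3.80 ± 1.67 and that of TNFRSF4 with TNFRSF18 3.03 ± 0.33 against 2.90 ± 1.51. In each of the 3 same-numbered pairs the ERβ library was the lower for TNFRSF12A, TNFSF18 and TNFSF15. This held for 8 of the 43 members, beside 23% of all genes, and the opposite for 2, beside 7.23%. With the replicate block the differences were -0.34 (95% interval -0.66 to -0.02), -0.40 (-0.71 to -0.10) and -0.34 (-0.70 to 0.02) on the log2 scale, with adjusted p of 0.58, 0.563 and 0.6 by limma. All 3 ERβ libraries lay below all 3 mock libraries in 2 members, beside 4.42% of all genes, and above them in 2, beside 1.98%.

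In SW480, 6 members were higher with ERβ and none lower, beside 4.69% and 0.0206% of all genes. At an unadjusted p under 0.05 there were 18 higher and 0 lower, beside 24.3% and 0.916% of all genes. The median over members was 0.38 against 0.22 over all genes. The shared bin of TNFRSF4 and TNFRSF18 was 5.85-fold higher, 8.76 ± 3.29 against 1.5 ± 0.39 (SD, n = 3 each), or 1.91 ± 0.30 on the log2 scale (SE) with an adjusted p of 0.012 by limma. TNFRSF6B was 7.14-fold higher, 4.90 ± 0.93 against 0.687 ± 0.363 (SD, n = 3 each), or 1.82 ± 0.23 with an adjusted p of 0.00682 by limma. TNFRSF1B was 4.59-fold higher, 3.76 ± 0.58 against 0.820 ± 0.245 (SD, n = 3 each), or 1.39 ± 0.21 with an adjusted p of 0.0102 by limma. TNFRSF19 and TNFSF11 also rose, from 0.376 ± 0.118 to 1.18 ± 0.12 and from 0.278 ± 0.105 to 1.04 ± 0.34 (SD, n = 3 each), both by 0.67 on the log2 scale, with adjusted p of 0.0435 and 0.0466 by limma. Of the bins bound in SW480 ERβ, CD70 (1.09 ± 0.31, adjusted p = 0.0688), TNFSF13 (0.85 ± 0.26, adjusted p = 0.0852), TNFRSF9 (0.82 ± 0.31, adjusted p = 0.136) and TNFRSF10B with TNFRSF10C (0.66 ± 0.29, adjusted p = 0.192) did not pass by limma. Nor did RELT (0.70 ± 0.26, adjusted p = 0.129), FASLG (0.49 ± 0.20, adjusted p = 0.154) and EDAR (0.67 ± 0.32, adjusted p = 0.226). With the replicate number as block, CD70 and TNFSF13 passed too, with adjusted p of 0.0172 and 0.0237 by limma, for 8 members in all, beside 11.6% of all genes.

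The SW480 calls depend on how the libraries are scaled and on single libraries. Replicates 2 and 3 of SW480 ERβ had the highest signal over all genes. After all libraries were rescaled over their 2000 highest bins no member passed, beside 0.072% of all genes. The median over members was then -0.16 and that over all genes -0.21. The rescaling removes any rise with ERβ that the high bins share, so it cannot tell such a rise from a difference in library level. TNFRSF4 with TNFRSF18, TNFRSF6B and TNFRSF1B were then 1.19, 1.22 and 0.80 higher on the log2 scale, with adjusted p of 0.0502, 0.128 and 0.134 by limma. Without replicate 2 of SW480 mock no gene passed at all, without replicate 1 of SW480 mock 1 member did and without replicate 3 of it 4 did, beside 0.175% and 0.772% of all genes. Without replicates 1, 2 and 3 of SW480 ERβ in turn, 17, 2 and 1 members passed, beside 24%, 0.586% and 0.448%. The call of TNFRSF4 with TNFRSF18 was lost without replicate 1 or 2 of SW480 mock or replicate 2 or 3 of SW480 ERβ, with adjusted p of 0.0547 to 0.0966 by limma. Those of TNFRSF19 and TNFSF11 were lost without any library but replicate 1 of SW480 ERβ, with adjusted p of 0.128 to 0.16. The TNFRSF6B call was lost without 1 library, replicate 2 of SW480 mock, with a difference of 1.71 and an adjusted p of 0.0575 by limma. That of TNFRSF1B was lost without the same library (0.0895) and without replicate 1 of SW480 mock or replicate 3 of SW480 ERβ, with adjusted p of 0.0612 and 0.0594. All 3 SW480 ERβ libraries lay above all 3 mock libraries in 20 of the 43 members, beside 25.4% of all genes, and below them in 0, beside 1.96%.

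**Figure D4:**
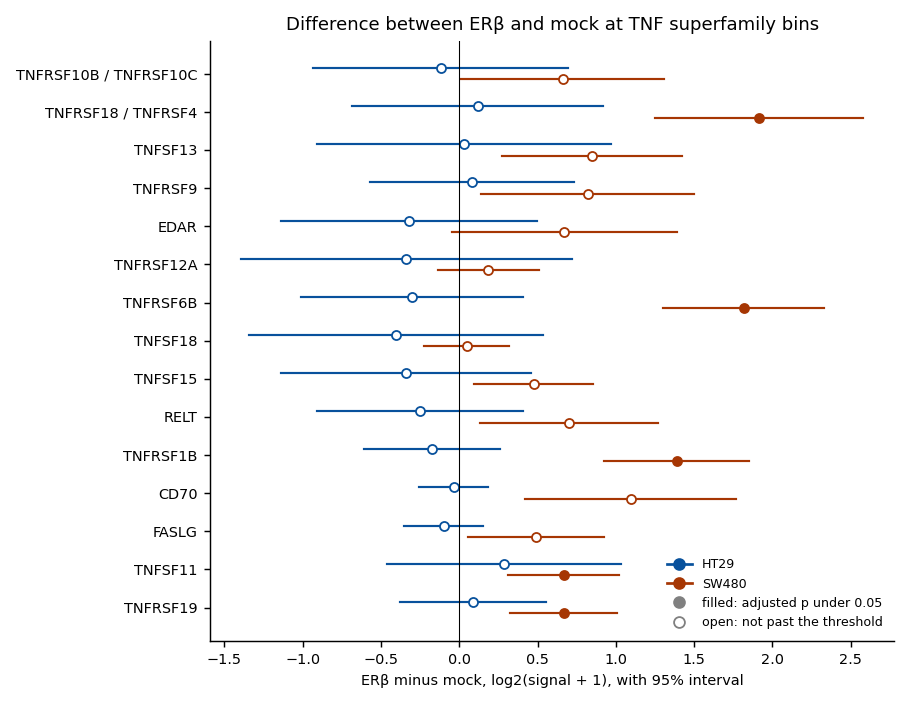
Difference between ERβ and mock on the scale of log2(signal + 1) in HT29 (blue) and SW480 (orange) with 95% intervals from limma, for the 13 bound bins and for TNFSF11 and TNFRSF19, filled where the adjusted p was under 0.05. Every HT29 interval includes 0, and the filled SW480 points are those of TNFRSF4 with TNFRSF18, TNFRSF6B, TNFRSF1B, TNFSF11 and TNFRSF19.

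The difference between the ERβ effects of the lines was tested itself, as the interaction in a fit of all 12 ChIP libraries. By the paper ERβ was expressed more in SW480 than in HT29, so line and ERβ level cannot be told apart here. It was higher in SW480 for 4 members and lower for none, beside 2.48% and 0.00514% of all genes, and at an unadjusted p under 0.05 for 12 and 2, beside 18.8% and 0.622%. The 4 were TNFRSF6B (2.12 ± 0.44 on the log2 scale, adjusted p = 0.00504 by limma), TNFRSF1B (1.56 ± 0.34, adjusted p = 0.00752) and the shared bin of TNFRSF4 and TNFRSF18 (1.80 ± 0.51, adjusted p = 0.0449). In HT29 the corresponding effects of ERβ were -0.30, -0.17 and 0.12, none past the threshold. With the replicate block, 11 members were higher and 1 lower, beside 18.8% and 0.118% of all genes, and after rescaling over high bins none passed, beside 0.0977% of all genes higher and 0.0206% lower. TNFRSF6B then stood at 1.33 (adjusted p = 0.0701 by limma), TNFRSF1B at 0.83 (adjusted p = 0.184) and the bin of TNFRSF4 and TNFRSF18 at 0.82 (adjusted p = 0.172). The count was 1 without replicate 1 of HT29 mock, replicate 2 of HT29 ERβ or replicate 2 of SW480 mock, beside 0.293%, 0.36% and 0.566% of all genes, and 2 without any 1 of 6 other libraries, beside 0.432% to 1.58%. It was 7 without replicate 1 of HT29 ERβ, beside 8.85%, 6 without replicate 1 of SW480 ERβ, beside 8.67%, and 4 without replicate 2 of HT29 mock, beside 2.46%. The call of TNFRSF6B was kept whichever of the 12 libraries was left out. That of TNFRSF1B was lost without replicate 1 of HT29 mock, replicate 2 of HT29 ERβ or replicate 2 of SW480 mock (adjusted p of 0.0525, 0.0635 and 0.0521 by limma), and that of TNFRSF4 with TNFRSF18 was lost without any 1 of 9 libraries.

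Between the ERβ lines, 16 members were higher in SW480 and 6 lower, beside 22.7% and 2.81% of all genes, with a median of 0.58 over members against 0.33 over all genes. This comparison shares its libraries with those above, and the level of ERβ differs between its groups too, by the paper. CD70 was 12.5-fold higher in SW480 ERβ (1.81 ± 0.29 on the log2 scale, adjusted p = 0.00134 by limma), TNFRSF1B 6.77-fold (1.61 ± 0.26, adjusted p = 0.00135) and FASLG 6.57-fold (1.27 ± 0.21, adjusted p = 0.00157). RELT, TNFRSF9 and TNFRSF10B with TNFRSF10C were 3.88-fold, 3.61-fold and 2.90-fold higher, with adjusted p of 0.00754, 0.0151 and 0.0318 by limma. TNFSF18 was 7.27-fold lower in SW480 ERβ (-1.5 ± 0.30, adjusted p = 0.00352 by limma), TNFRSF12A 5.82-fold (-1.49 ± 0.35, adjusted p = 0.00898) and TNFSF15 2.84-fold (-0.91 ± 0.29, adjusted p = 0.0339). With the replicate block 9 were higher and 5 lower, beside 18.8% and 2.81% of all genes, and TNFRSF9, TNFRSF13C, TNFSF15, TNFRSF6B and the shared bins of TNFRSF10B and of TNFRSF4 did not pass. Between lines this block rests on the replicate numbers alone, since no pairing was shown there. After rescaling over high bins 6 were higher and 6 lower, beside 6.49% and 7.4% of all genes, and without replicate 2 of HT29 ERβ, the library that reduced the count most, 5 were higher, beside 7.76%. The count was 6 without replicate 3 of HT29 ERβ and 9 without replicate 2 or 3 of SW480 ERβ, beside 8.83%, 12.7% and 14.8%. Of the calls above, those of CD70, FASLG, TNFRSF1B, TNFSF18 and TNFRSF12A were kept without any 1 library. With the most upstream TSS of each gene, which changed the CD70 bin, its call was lost (0.25 on the log2 scale, adjusted p = 0.329 by limma). The call of RELT was lost without replicate 2 of HT29 ERβ (adjusted p = 0.0633 by limma). Those of TNFRSF9 and of TNFRSF10B with TNFRSF10C were lost without that library or replicate 2 or 3 of SW480 ERβ, with adjusted p of 0.0687 to 0.0788 and of 0.126 to 0.145, and the latter also without replicate 3 of HT29 ERβ (0.116). That of TNFSF15 was lost without any library but replicate 3 of HT29 ERβ, with adjusted p of 0.0695 to 0.0964.

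The proteins that carry the signal of these receptors to NFκB, and the inhibitors that NFκB itself induces, were read in the same way as a list of 32 genes, of which 31 had signal. Of these 17 were bound in HT29 mock, 15 in HT29 ERβ, 12 in SW480 mock and 18 in SW480 ERβ, beside 11.7%, 8.02%, 4.64% and 21.2% of all genes. The highest bins were those of the feedback genes and subunits. In HT29 mock and SW480 mock, NFKB2 had means of 22.3 ± 7.8 and 14.3 ± 1.7 (SD, n = 3 each), NFKBIA 15.6 ± 6.4 and 20.0 ± 4.8, TNFAIP3 (A20) 14.0 ± 5.4 and 22.9 ± 3.0, and the bin shared by BIRC2 and BIRC3 16.5 ± 5.5 and 18.4 ± 2.9. The highest member bin, that of TNFRSF10B, had 3.53 ± 0.88 and 5.4 ± 0.54 in the same groups. With ERβ in HT29 0 of the 31 passed by limma, and 0 at an unadjusted p under 0.05. The lowest unadjusted p there was that of TRAF3 (-0.73 ± 0.40 on the log2 scale, adjusted p = 1 by limma), and RELA and FADD met the limits of binding in HT29 mock but not in HT29 ERβ. Their inputs were higher in HT29 ERβ than in HT29 mock, at 0.933 against 0.647 for RELA and 0.907 against 0.403 for FADD. With ERβ in SW480 3 rose, beside 4.69% of all genes, FADD (1.4 ± 0.24 on the log2 scale, adjusted p = 0.0165 by limma), the death-domain adaptor, TRAF1 (1.39 ± 0.25, adjusted p = 0.0192), an adaptor of TNFRSF1B and other receptors, and CFLAR (1.33 ± 0.26, adjusted p = 0.0277), the inhibitor of caspase-8 activation. After rescaling over high bins none of the list passed, and the differences were 0.72 for FADD, 0.77 for TRAF1 and 0.74 for CFLAR, with adjusted p of 0.128 to 0.169. All 3 calls were lost without replicate 1 or 2 of SW480 mock or replicate 3 of SW480 ERβ, those of FADD and CFLAR also without replicate 3 of SW480 mock, and those of TRAF1 and CFLAR without replicate 2 of SW480 ERβ (adjusted p of 0.0651 to 0.142 by limma). With the replicate block 8 of the list rose, beside 11.6% of all genes, and without replicate 1 of SW480 ERβ 13 did, beside 24%. In SW480 mock against HT29 mock, a comparison that shares the SW480 mock libraries, 7 of the list were lower and 3 higher, beside 8.95% and 9.07% of all genes. After rescaling over high bins 8 were lower and 11 higher, beside 7.76% and 24.8%. With the input subtracted 2 were lower and 0 higher, beside 1.51% and 0.18%. None of the list passed the test of the interaction, where FADD stood at 1.6 ± 0.50 (adjusted p = 0.0728 by limma) and TRAF1 at 1.65 ± 0.51 (adjusted p = 0.0675). This count depended on the setting. With the replicate block 8 were higher, beside 18.8% of all genes, and with the input subtracted 8, beside 23.7%. Without replicate 1 of every group 13 were higher, beside 17%. After rescaling 0 were higher and 1 lower, beside 0.0977% and 0.0206%.

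The remaining 13 members with signal, CD27, CD40, CD40LG, EDA2R, FAS, LTBR, TNFRSF13B, TNFRSF17, TNFRSF1A, TNFRSF21, TNFRSF25, TNFRSF8 and TNFSF10, were bound in no group and passed no comparison. Their means over the 12 ChIP libraries were 0.396 to 1.82 and their single values 0.18 to 3.57, and the mean ChIP signal was 1.16-fold to 2.76-fold over the mean of the inputs. A bin that was not called can still hold weak binding. TNF, LTA and LTB, which are neighbours on chromosome 6, and TNFRSF14 were not analysed here, since no library, inputs included, had signal anywhere in their range. The same held for 529 of the 19970 genes, or 2.65%.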

How the data were processed

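The authors mapped single-end reads with STAR to GRCh38, of which unique alignments were kept, and made coverage tracks with HOMER. The deposited signal is coverage per base, scaled to 10000000 tags and fragments of 100 bp, and the tracks list no value under 0.05. Versions of these tools are not given in the sources used here, and the study's own tests on tag counts were not possible on scaled tracks. The labels list the p65 antibody on the inputs too, and these were read as inputs from their titles.

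Tracks were averaged over 200-bp bins on a fixed grid in Python 3.11.15 (numba 0.67.0, pandas 2.3.3, numpy 2.4.6), sequences were read with pysam 0.24.0, and figures were drawn with matplotlib 3.10.9. TSSs were those of the canonical transcripts of GENCODE release 44, on the same build. Genes without signal in any of the 16 libraries were left out. Signal was compared as log2(signal + 1) with limma 3.58.1 in R 4.3.3 (moderated with a trend, two-sided), each comparison on its own groups, with Benjamini-Hochberg adjustment over 19441 genes and a threshold of 0.05. The fits were tested on simulated data. The 3 libraries of a group are biological replicates by the study's methods.

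Members and lists were chosen with earlier results of these data known. Values in every library are given for the 30 members bound in at least 1 group or past the threshold in any of the 5 comparisons, in 27 bins, and the signalling list is given by counts, with its highest bins and the genes past the threshold with ERβ. The bins were chosen on the libraries that are compared, for members and all genes alike. Replicate numbers were taken to pair mock and ERβ libraries within a line, because the deviations of all 6 pairs correlated above 0.1, at 0.14 to 0.484 over 8805 bins. Replicate 2 of HT29 mock correlated more with replicate 3 of HT29 ERβ (0.213) than with replicate 2 (0.154). Between lines no pairing was shown.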

Additional observations from a re-analysis of the deposited data

Results flagged for a closer look

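The effect of ERβ differed between the lines by the test of the interaction in 4 members, and these were marked for that reason. For TNFRSF6B the effect in SW480 minus that in HT29 was 2.12 on the log2 scale, for TNFRSF18 and TNFRSF4, which share a bin, it was 1.8, and for TNFRSF1B it was 1.56. In SW480 the effect was 1.82, 1.91 and 1.39 in the same order, and in HT29 it was -0.30, 0.12 and -0.17. All 3 SW480 ERβ libraries stood above all 3 SW480 mock libraries in each of these bins, beside 25.4% of all genes. The bins were picked by a fit of these same libraries, so this adds no support. Each bin holds a κB match, as does 59.5% of all bound bins. Replicates 2 and 3 of SW480 ERβ were the highest of the series over the 2000 highest bins, at 1.9 and 1.63 times the level of the average library. Replicate 1 of SW480 ERβ stood at 0.991 of that level and the SW480 mock libraries at 0.665, 0.808 and 0.826. What made these levels differ was not tested. In replicates 1, 2 and 3 of SW480 ERβ the bin of TNFRSF4 and TNFRSF18 read 5, 10.1 and 11.2, that of TNFRSF6B 5.76, 5.04 and 3.92 and that of TNFRSF1B 3.57, 3.3 and 4.41. With the libraries brought to one level over the 2000 highest bins, the interaction was 1.33 for TNFRSF6B, 0.82 for TNFRSF18 and TNFRSF4 and 0.83 for TNFRSF1B. The adjusted p were 0.0701, 0.172 and 0.184 by limma, and no call was kept. A change of binding shared by those high bins is also removed by this step. Groups of 3 libraries are too small for the search for a library far from the others.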

How the results depend on the processing

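Of the calls named above, those of TNFRSF12A, TNFSF15 and TNFSF18 between the mock lines and of TNFRSF12A, TNFSF18, FASLG and TNFRSF1B between the ERβ lines stayed past the threshold in all 16 alternatives run for each. The counts of members moved more. Members higher with ERβ in SW480 were 6 as reported, 0 after rescaling, 14 with the input subtracted and 11 without replicate 1 of every group, beside 4.69%, 0.072%, 24.5% and 16.4% of all genes in the same order. For the ERβ effect in SW480 minus HT29, 4 as reported became 0 after rescaling, 2 with the most upstream TSS, 11 with the input subtracted (1 lower), 11 with the replicate block (1 lower) and 12 without replicate 1 of every group, beside 2.48%, 0.0977%, 2.1%, 23.7%, 18.8% and 17% of all genes higher. Members higher in SW480 mock than in HT29 mock were 8 as reported, 2 with a filter on low values and 0 with the input subtracted, beside 9.07%, 9.43% and 0.18%, and those lower were 8, 5 with the filter, 5 after rescaling, 4 with the input subtracted and 4 without replicate 1 of every group, beside 8.95%, 18.3%, 7.76%, 1.51% and 4.38%. Members higher in SW480 ERβ than in HT29 ERβ were 16, 6 after rescaling and 9 with the replicate block, beside 22.7%, 6.49% and 18.8%. At a signal minimum of 4, bound members were 1 in HT29 mock, 0 in HT29 ERβ, 2 in SW480 mock and 9 in SW480 ERβ, beside 4.73%, 2.88%, 2.67% and 11%. With the input subtracted, TNFRSF11B turned to 0.16 and TNFSF12 and TNFSF12-TNFSF13 to -0.0773 between the mock lines, all 3 past no threshold. In 32 further cases a difference that passed no threshold in either setting changed sign. The cause of these changes was not tested.

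Leaving out 1 library at a time gave 0 to 17 members higher with ERβ in SW480 (all genes 0% to 24%) and 1 to 7 for the interaction (0.293% to 8.85%). In SW480 ERβ against HT29 ERβ 5 to 19 were higher (7.76% to 26%) and 4 to 6 lower (1.42% to 2.4%), and in SW480 mock against HT29 mock 4 to 8 higher (3.93% to 8.01%) and 4 to 7 lower (4.09% to 9.44%). Bound members were 6 to 9 in HT29 mock (8.2% to 10.3%), 6 to 9 in HT29 ERβ (4.76% to 6.82%), 3 to 4 in SW480 mock (3.18% to 4.15%) and 10 to 11 in SW480 ERβ (12.2% to 20.6%). For these, all remaining libraries of the group had to meet the limits, so the counts could not rise. With 3 libraries a group, scaled coverage and 1 input a group, small differences could not be detected, and the depth of each library was not used here.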

Other observations

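Beyond the chosen bins, other bins near the members met the limits of binding. With any bin of the range counted, 12 members were bound in SW480 ERβ, beside 22.5% of all genes. TNFRSF10B had a bin 530 bp downstream of its TSS, in its own intron, with a κB match. It was bound in both SW480 groups and in neither HT29 group, and lay 34420 bp upstream of TNFRSF10C. Near TNFRSF1B, 2 further bins were bound in SW480 ERβ alone, 31090 and 18690 bp upstream, the first in an intron of TNFRSF8. They held 2 and 1 κB matches. RELT had 2 further bins bound in SW480 ERβ alone, 14298 and 8298 bp upstream, in exons of ARHGEF17, the nearer one with 3 κB matches and the farther with none. TNFRSF6B had 1 more, 4551 bp upstream, with no κB match. Its means were 2.54 in HT29 mock, 2.12 in HT29 ERβ, 0.856 in SW480 mock and 4.46 in SW480 ERβ. Others bound in SW480 ERβ alone lay 24148 bp upstream of TNFRSF4, nearest to B3GALT6, and 20662 bp upstream of TNFRSF9, in the PARK7 promoter. Neither held a κB match. At the PARK7 promoter the means were 2.35 in HT29 mock, 2.185 in HT29 ERβ, 2.07 in SW480 mock and 2.98 in SW480 ERβ. Another bin bound in SW480 ERβ alone lay 15070 bp upstream of TNFRSF10B and 18820 bp upstream of TNFRSF10C, with 1 match. A second TNFRSF12A bin, 27467 bp upstream in an exon of GREP1 and with 1 κB match, was bound in HT29 mock alone. Its means were 2.13 in HT29 mock, 1.70 in HT29 ERβ, 0.629 in SW480 mock and 0.451 in SW480 ERβ. These calls describe the limits met and are no test between groups.

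TNFSF18 was bound in HT29 and not in SW480, while the bin of its receptor TNFRSF18 was bound in HT29 and in SW480 ERβ. TNFRSF12A was bound in HT29, and its ligand TNFSF12 was bound in no group. FASLG and its decoy receptor TNFRSF6B both met the limits of binding in SW480 ERβ alone. In HT29 mock, however, TNFRSF6B was 4.21-fold over its input by the mean and FASLG 1.8-fold. These pairs were chosen after their values were seen.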
